A study of Drosophila melanogaster with 8 samples.

Results

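The genes described here are the 129 genes of the deposited table whose symbols are CR followed by digits, out of 7671 genes in all. FlyBase, the fly genome database, gives CR numbers to genes annotated without a protein product and CG numbers to genes annotated with one. The members were taken by symbol alone, with 1 of the 130 such rows, CR44138, left out. The table itself held only genes above a minimum level, so the members are the CR genes that the gut libraries detected. In the later Ensembl annotation of the same BDGP6 assembly, 128 were found by their FlyBase identifiers and CR18854 was found as a synonym in RefSeq. There were 59 long non-coding RNAs (lncRNAs), 49 antisense RNAs, 18 pseudogenes and 1 hairpin RNA. The other 2, CR43051 and CR45045, are now annotated as the protein-coding genes CG43051 and CG45045, so the label non-coding did not hold for them.

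Long non-coding RNAs are transcribed and usually processed like mRNAs but carry no long reading frame. Some act as RNAs in the nucleus, some are precursors of small RNAs, and for most fly lncRNA genes no function is known. An antisense RNA is read from the strand opposite to another gene, whose exons or introns it crosses. Pseudogenes are damaged copies of protein-coding genes, so that reads from a pseudogene and from its parent can be hard to tell apart where the copies remain alike. In poly-A selected libraries such as these only RNAs with a poly-A tail are well captured, which leaves many small structural RNAs out.

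Intestines were dissected from 7-day-old mated female flies kept for 24 h on food diluted to 0.25x, either without supplement (control, 4 libraries) or with 0.1 M N-acetyl-D-glucosamine (GlcNAc, 4 libraries), a sugar that enters the hexosamine pathway. All flies of both groups carried UAS-mCD8::GFP with hsFLP, a copy of tub-GAL4, and FRT82B chromosomes with and without tub-GAL80, the parts of a mosaic labelling system whose driver and repressor use the ubiquitous tubulin promoter. Whether these flies were heat-shocked, and how many intestines went into a library, is not given in the sources used here. The labels name the tissue as intestine but also as whole larvae, and the treatment as glucosamine, whereas the protocol names adult intestines and GlcNAc.

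The 8 libraries held 8839877 to 10326189 reads on the genes of the table, and 1 read was worth 0.0957 to 0.112 CPM, the reads of a gene scaled to a common library size. Of the markers of the gut, 6 of 6 progenitor genes, 11 of 13 enterocyte genes and 8 of 9 enteroendocrine genes were in the table, with 11 of 11 genes of visceral muscle. Ovary markers were present only as the yolk protein genes Yp1 and Yp3 (2 of 13), whose sum ran from 21.5 to 533.8 CPM in control and from 79.3 to 267.0 CPM on GlcNAc. Of 5 fat body markers 1 was in the table, apolpp, at 2.03 to 117.5 CPM in control and 18.4 to 66.7 CPM on GlcNAc. Which tissue the yolk protein reads came from was not tested. The summed enterocyte markers, mostly digestive proteases, ran from 92496 to 109680 CPM in control and from 82053 to 88047 CPM on GlcNAc. Gene by gene, in the limma test described below, 1 of the 11 enterocyte genes was higher on GlcNAc, 3 were lower and the others did not pass. Of the 8 enteroendocrine genes 3 were higher and 0 lower, of the visceral muscle genes 0 were higher and 1 lower, and 0 progenitor genes passed. These counts stand beside 8.75% of all genes higher and 6.6% lower. In whole intestines, fewer cells of a type and less RNA per cell cannot be told apart, and the part of these markers in the results was not tested.

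The CR genes of the gut were few and weakly expressed. The annotation held 2687 non-coding genes with CR names, of which 131 (4.88%) were in the table, counting those that the files list under another symbol. The members' mean level over the 8 libraries had a median of 2.47 CPM, against 27.7 CPM for the 7431 protein-coding genes. A mean of at least 10 CPM was reached by 16 members (12.4%) and by 73.5% of the protein-coding genes, while 50 members lay under 2 CPM and 63 lay between. The CR genes were also short, with a median exonic length of 1044.5 bases against 2168 bases for protein-coding genes, and per kilobase of exon the medians were 2.77 and 12.2 CPM. Together the members took 0.0889 ± 0.00425% of the reads in control and 0.0876 ± 0.00449% on GlcNAc (SD, n = 4), so their total did not shift beyond the spread between libraries.

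The 5 members with the highest levels held 38.8% of the members' summed CPM. The highest was CR18854, the hairpin RNA, a long inverted repeat known in flies as a precursor of endogenous small interfering RNAs. Its level was 126.2, 137.8, 147.8 and 134.6 CPM in the control libraries and 138.0, 158.6, 142.2 and 120.9 CPM on GlcNAc. The groups overlapped and the log2 fold change of GlcNAc over control was 0.03 (95% interval −0.16 to 0.22). CR43051 came next with 73.6 ± 3.44 CPM in control and 68.0 ± 4.69 CPM on GlcNAc, and per kilobase it stood at 125.1 CPM. It also had the lowest spread of all members, with a pooled SD of 0.0868 on the log2 scale. CR44690, an antisense RNA on the X chromosome, was at 62.7, 72.8, 61.2 and 77.5 CPM in control and at 50.8, 70.04, 47.1 and 58.4 CPM on GlcNAc. Only GlcNAc replicate 2 rose into the control range, and the change of −0.29 did not pass the test (limma adjusted p = 0.171), though it passed without that library (0.0346). CR45604, another antisense RNA of the X chromosome, was at 33.5 ± 6.87 CPM in control and 32.6 ± 7.07 CPM on GlcNAc. CR45133, the remaining member of the top 5, is described with the genes that fell.

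By class, the median mean level was 2.49 CPM for lncRNAs, 2.21 CPM for antisense RNAs and 4.94 CPM for pseudogenes. By position, 65 members overlapped a gene on the opposite strand only, 12 on the same strand only and 8 on both strands, and 43 overlapped no other gene. The 73 members with a gene on the opposite strand were all 49 antisense RNAs, 18 lncRNAs and 6 others. Members came from every large chromosome arm, with 29 on 3R, 27 on 2R, 24 on X, 23 on 2L, 22 on 3L and 4 on the fourth chromosome.

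Because the levels were low, counting error set much of the spread between libraries. A value of a member rested on a median of 23 reads, against 262 for protein-coding genes, and 75 members had a mean under 30 reads. The median pooled SD within conditions was 0.33 on the log2 scale for CR genes and 0.15 for protein-coding genes, while counting alone would give 0.31 and 0.09. In 95 of the 129 members the SD was within 1.5 times the counting SD, and in 11 it was over 2 times. Within ranges of level the difference narrowed, with median SDs of 0.30 and 0.28 between 2 and 10 CPM, and 0.43 and 0.48 under 2 CPM. From 10 CPM upwards the median SD was 0.20 for CR genes and 0.13 for protein-coding genes. After CR43051 the steadiest members were CR44417 (pooled SD 0.105) and CR45943 (0.108), both below their own counting SD. The most variable were CR12460 (1.63), CR45192 (0.895) and CR44029 (0.813), each with a mean of about 1 CPM. CR44029, an antisense RNA of the fourth chromosome, was at 1.93, 0.391, 1.28 and 1.64 CPM in control and at 0.771, 1.41, 1.68 and 1.10 CPM on GlcNAc.

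**Figure D1:**
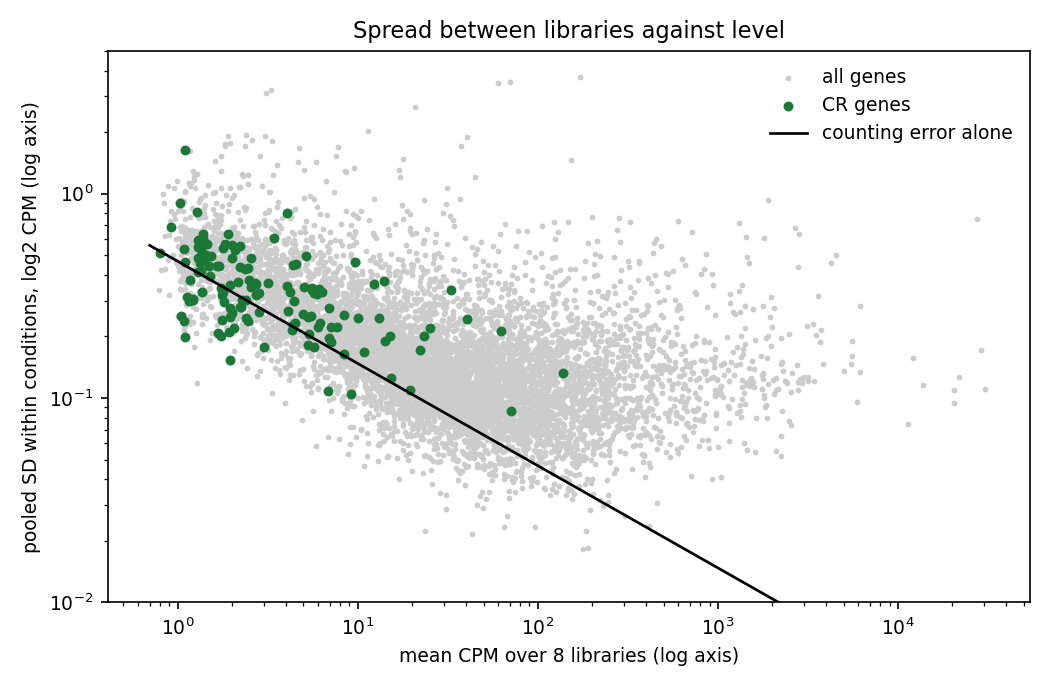
Pooled SD of log2 CPM within conditions against mean CPM, both on log axes, for all genes and for the CR genes, with the SD that counting alone gives. Most CR genes lie near the counting line, and 11 have an SD over 2 times that of counting.

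The comparison of GlcNAc with control asked which CR genes moved when the sugar was added to restricted food. The test was limma on the deposited log2 CPM of all 7671 genes, two-sided, with Benjamini-Hochberg adjustment over the whole table and a threshold of 0.05. Of the 129 CR genes, 18 changed (13.95%), beside 15.3% of all genes. On GlcNAc 8 were higher, beside 8.75% of all genes, and 10 were lower, beside 6.6%. At an unadjusted p under 0.05 there were 34 members (26.4% beside 27.6%), 11 higher and 23 lower. The groups of 4 libraries did not overlap in 25 members (19.4%, beside 20.5% of all genes), and 16 of these passed the threshold. Over all levels the share of CR genes that changed was thus close to that of the whole table. Within ranges of level it was higher in some and lower in another. From 10 CPM upwards 7 of 16 members had changed (43.75%, beside 18.6% of protein-coding genes), with median levels of 20.9 and 46.0 CPM, so that levels were not matched. Among these 7 were CR45133 and CR43685, whose calls were lost in 5 and 7 of the 8 fits with a library left out. Between 2 and 10 CPM 10 of 63 members had changed (15.9% beside 6.35%). Under 2 CPM, where most CR genes had few reads, 1 of 50 had changed (2% beside 6.82%). These shares are descriptions, with no test. The median log2 fold change of the members was −0.04, against 0.01 over all genes, with 61 members above 0 and 68 below, a split that scaling by library totals turned to 66 and 63 and quantile normalization to 51 and 78. Changes over 1.5-fold were seen in 26 members (20.2%, beside 9.26% of all genes), of which 6 were called higher and 8 lower. The share over 1.5-fold was 24% under 2 CPM, beside 29.1% of protein-coding genes. Between 2 and 10 CPM it was 15.9% beside 11.6%, and from 10 CPM upwards 25% beside 6.81%.

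Among the classes, 7 of 59 lncRNAs were higher and 3 lower (16.9% changed), and 1 of 49 antisense RNAs was higher and 4 lower (10.2%). Of the 18 pseudogenes, 3 were lower with the other 15 not past the threshold (16.7%). These shares stand beside 15.3% of all genes, 8.75% higher and 6.6% lower. The authors had kept genes above 1 CPM in at least 3 of the 4 libraries of a condition, so a gene could enter through 1 condition alone. In that way 10 members entered through control only, CR46269 among them, and 10 through GlcNAc only, CR45195 among them. Entry through 1 condition favours genes that are higher in it, and all 20 were, so their direction is not independent of the filter. Of the 26 members with changes over 1.5-fold, 5 had entered through control only and 4 through GlcNAc only. Of the 109 members that entered through both conditions, 7 were higher and 9 lower (14.7%, beside 15.3% of all genes that entered through both). For the 111 members that did not pass, the 95% interval of the change lay within 2-fold for 84 and reached beyond it for 27.

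**Figure D2:**
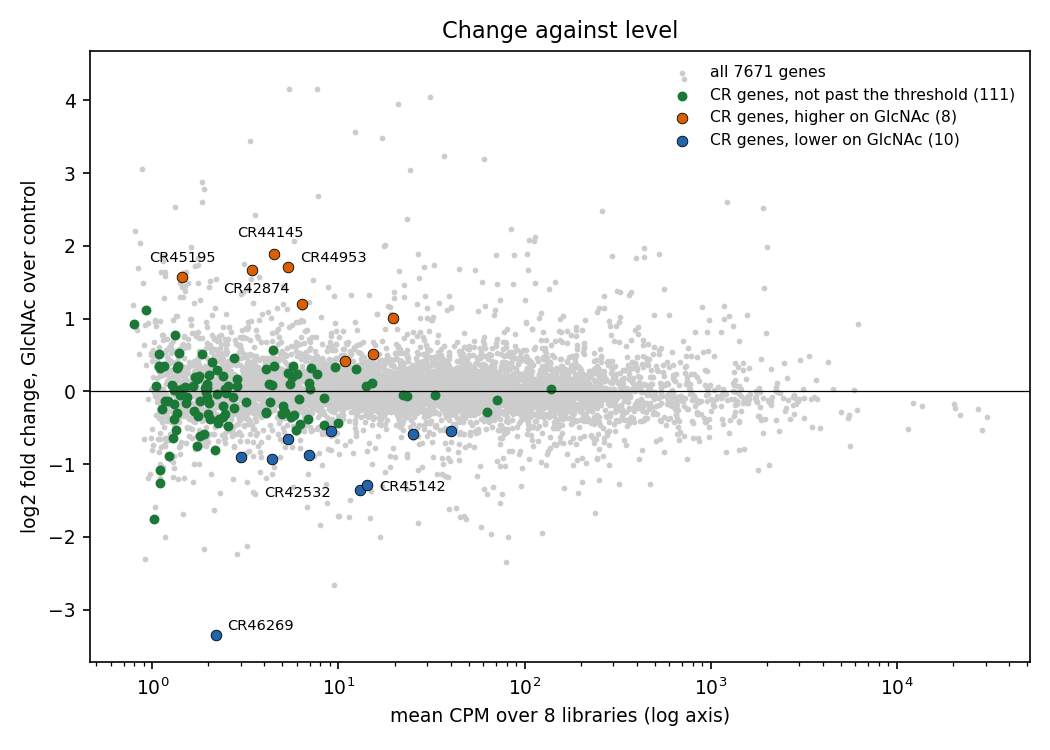
Log2 fold change of GlcNAc over control against mean CPM (log axis) for all 7671 genes, with the CR genes coloured by the limma call. The 8 higher and 10 lower CR genes lie mostly between 1 and 50 CPM, with CR46269 at −3.34 the lowest point of the plot.

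The largest fall among the CR genes was that of CR46269, an antisense RNA on the minus strand of chromosome 2R (BDGP6, 2R:5957588-5959299). It was at 3.80, 4.53, 3.62 and 3.97 CPM in the control libraries and at 0.566, 0.678, 0.255 and 0.239 CPM on GlcNAc, with every GlcNAc library far below every control library. In reads this was 145 against 15 over the 4 libraries of each group, a ratio of 10.3 at equal depth (95% counting interval 6.07 to 19.0). The log2 fold change was −3.34 (SE 0.38, limma adjusted p = 0.000359). This was the lowest log2 fold change of all 7671 genes on the deposited scale, though with a pseudocount of 2 CPM it ranked 24 among the falls. CR46269 had entered the table through control only, so its direction and rank are not independent of the filter. CR46269 lies opposite CG7882, a gene not analysed here.

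**Figure D3:**
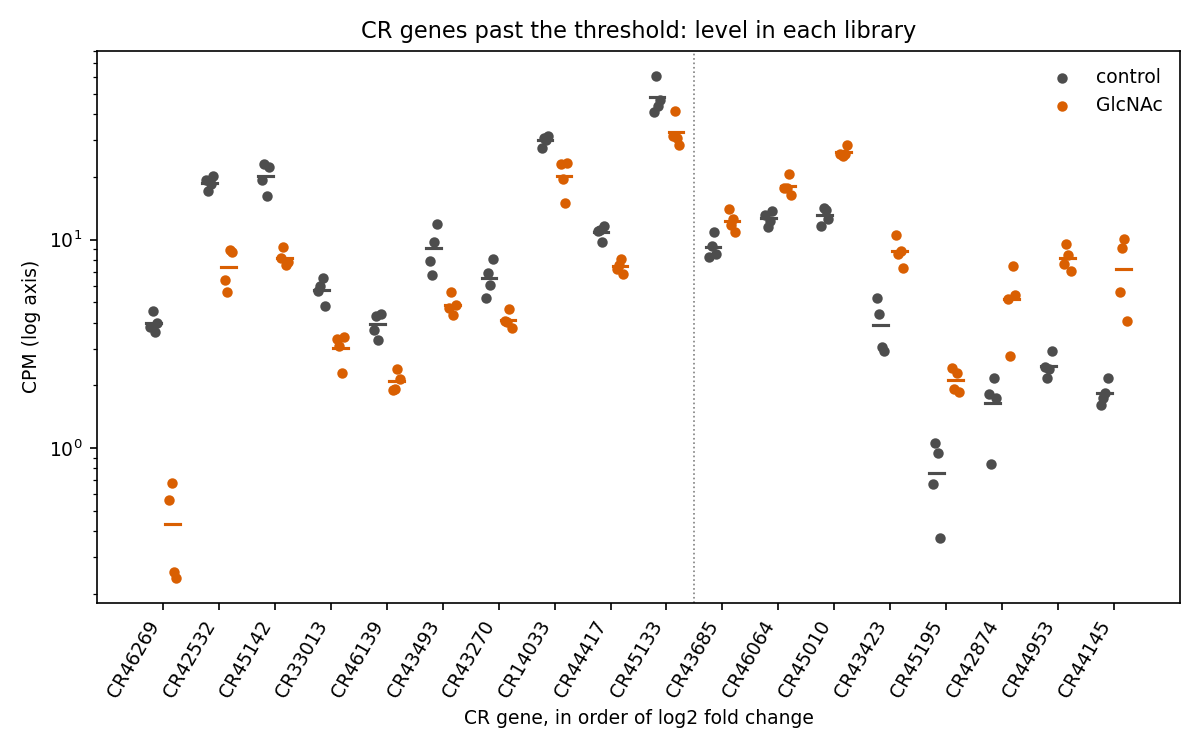
Level of each of the 18 CR genes past the threshold in every library, as CPM on a log axis. Each point is a library, short lines are group means, the dotted line parts the genes that fell from those that rose, and the groups are separate for every gene shown except CR45133 and CR43685.

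CR45142, an antisense RNA (2R:13168500-13170745, minus strand), fell from 19.2, 23.1, 16.1 and 22.3 CPM to 8.18, 9.23, 7.59 and 7.80 CPM. The change was −1.29 (SE 0.13, limma adjusted p = 0.000154), and the SD between GlcNAc libraries was 0.729 CPM. CR45142 runs antisense to Spt-I, a subunit of serine palmitoyltransferase, the first enzyme of sphingolipid synthesis. CR46139, antisense to CG34112 (3R:4393350-4394493, plus strand), fell from 3.92 ± 0.523 to 2.095 ± 0.229 CPM, a change of −0.90 (SE 0.18, limma adjusted p = 0.00759). CR45133, antisense to the potassium channel gene KCNQ (2R:10152717-10154345, plus strand), was at 40.8, 60.9, 43.8 and 46.5 CPM in control and at 31.5, 41.3, 30.5 and 28.5 CPM on GlcNAc. Its groups touched, since GlcNAc replicate 2 exceeded control replicate 1, and its change of −0.54 passed limma (SE 0.14, adjusted p = 0.0285) but not the two-sided exact permutation test (p = 0.0571). The yolk protein gene Yp1 was also highest in replicate 2 of each condition, at 415.7 and 225.0 CPM, beside 18.8 to 188.4 CPM and 63.0 to 94.0 CPM in the others. So was the fat body marker apolpp, at 117.5 and 66.7 CPM. The part of Yp1 and apolpp in the values of CR45133 was not tested, and without control replicate 2 the limma adjusted p of CR45133 was 0.0558.

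The 3 lncRNAs that fell were CR43493, CR43270 and CR44417. CR43493 (X:22487854-22490872, minus strand) was at 7.86, 6.77, 9.75 and 11.9 CPM in control and at 4.68, 5.58, 4.33 and 4.83 CPM on GlcNAc. All GlcNAc libraries were below all control libraries, and the change was −0.87 (SE 0.18, limma adjusted p = 0.00889). CR43270 (3L:22665300-22669528, minus strand) holds mir-958 on its own strand, the hairpin of a microRNA. It was at 5.26, 6.88, 6.07 and 8.10 CPM in control and at 4.06, 4.02, 4.64 and 3.78 CPM on GlcNAc, a change of −0.66 (SE 0.16, limma adjusted p = 0.0194), which no longer passed without control replicate 2 (0.050002), control replicate 4 (0.0556) or GlcNAc replicate 4 (0.0564). CR44417 (2R:17869027-17869857, plus strand), which lies opposite Mapmodulin, fell from 10.9 ± 0.785 to 7.44 ± 0.531 CPM. Its change of −0.55 was modest, but its libraries agreed closely (SE 0.11, limma adjusted p = 0.00641).

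All 3 pseudogenes that changed were lower on GlcNAc, and for each of them reads shared with a parent gene would make the value uncertain. CR42532 (2R:11866943-11867579, plus strand) was at 19.2, 17.1, 18.6 and 20.1 CPM in control and at 6.43, 5.58, 8.92 and 8.76 CPM on GlcNAc. The lowest control library was thus well above the highest GlcNAc library, and the change was −1.36 (SE 0.16, limma adjusted p = 0.000359). CR33013 (2R:12363320-12366579, plus strand) was at 5.68, 5.98, 6.52 and 4.81 CPM in control and at 3.34, 3.08, 2.29 and 3.40 CPM on GlcNAc, a change of −0.93 (SE 0.18, limma adjusted p = 0.00569). CR14033 (2L:5242699-5244239, plus strand) was the most abundant of the 3, at 27.4, 30.8, 30.1 and 31.4 CPM in control. On GlcNAc it was at 23.0, 19.6, 14.9 and 23.3 CPM, lower in all libraries, with a change of −0.59 (SE 0.13, limma adjusted p = 0.0145).

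Among the genes that rose, the lncRNA CR44145 (2L:11736402-11737541, plus strand) had the largest change, 1.89 on the log2 scale (SE 0.28, limma adjusted p = 0.00153). It was at 1.61, 1.73, 1.84 and 2.17 CPM in control and at 5.61, 9.13, 10.04 and 4.07 CPM on GlcNAc. All GlcNAc libraries were above all control libraries, but they ranged widely among themselves (SD 2.84 CPM). CR44953 (3R:29755190-29759040, minus strand) rose with less spread, from 2.45, 2.18, 2.40 and 2.91 CPM to 7.66, 9.54, 8.41 and 7.03 CPM. Its change was 1.72 (SE 0.16, limma adjusted p = 8.8e-05). CR42874 (2L:1989450-1990894, plus strand) was at 1.82, 0.839, 2.17 and 1.75 CPM in control and at 5.19, 2.76, 7.49 and 5.41 CPM on GlcNAc. Replicate 2 was the lowest library of each condition for this gene, and the change was 1.66 (SE 0.36, limma adjusted p = 0.0117).

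CR45010, a lncRNA of a single short exon on the X chromosome (X:23010972-23011293, plus strand), had the lowest spread of the 8 genes that rose, with a pooled SD of 0.11 on the log2 scale. It was at 11.6, 14.1, 13.9 and 12.5 CPM in control and at 25.7, 25.2, 25.7 and 28.5 CPM on GlcNAc. The change was 1.01 (SE 0.09, limma adjusted p = 7.3e-05), a 2.02-fold rise with 95% limits of 0.81 and 1.21 on the log2 scale. At 61.0 CPM per kilobase it was well above the median member. CR43423 (3L:637486-638568, minus strand) lies opposite the lncRNA CR43334, the precursor of the growth-promoting microRNA bantam. CR43334 is not analysed here. CR43423 was at 5.26, 4.42, 3.06 and 2.91 CPM in control and at 10.5, 8.50, 8.81 and 7.32 CPM on GlcNAc, a change of 1.20 (SE 0.21, limma adjusted p = 0.00374).

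The other genes that rose were CR45195, CR46064 and CR43685. The antisense RNA CR45195 (3R:10876834-10877783, minus strand) was at 0.677, 1.06, 0.947 and 0.370 CPM in control and at 2.42, 1.93, 2.29 and 1.87 CPM on GlcNAc. This rested on 26 reads against 82, a ratio of 2.95 at equal depth (95% counting interval 1.88 to 4.77), and the change was 1.58 (SE 0.36, limma adjusted p = 0.0145). CR45195 had entered the table through GlcNAc only, so its direction is not independent of the filter. CR46064 (2R:4782892-4785543, plus strand) rose from 12.7 ± 0.984 to 18.1 ± 1.75 CPM, a change of 0.51 (SE 0.10, limma adjusted p = 0.00662). CR43685 (3R:7092347-7093707, minus strand) was at 8.28, 9.34, 10.9 and 8.52 CPM in control and at 14.04, 11.7, 12.6 and 10.9 CPM on GlcNAc. Its groups met at 10.9 CPM, and its change of 0.41 (SE 0.12) passed narrowly in limma (adjusted p = 0.0469) and missed the threshold in the exact permutation test (p = 0.0571). It passed in 1 of the 8 fits with a library left out, that without control replicate 3 (0.0279), and the other 7 gave 0.0518 to 0.127. For the 16 called genes whose groups did not overlap, the exact permutation test gave 0.0286, the smallest p that 4 libraries against 4 allow. Any gene without overlap gets this value, as did the 9 such members that were not called, so it adds nothing to the separation of the groups.

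Just outside the threshold were CR45943, CR45192 and CR44779, all lower on GlcNAc and all with groups that did not overlap. CR45192 and CR44779, like CR12460, had entered the table through control only, so that their direction is not independent of the filter. CR45943, an antisense RNA, was at 7.76 ± 0.517 CPM in control and 5.96 ± 0.472 CPM on GlcNAc, a difference of −0.38 (limma adjusted p = 0.0518), and it passed under 4 of the alternatives, at 0.0216 to 0.0471. CR45192, antisense to the gene CG1208, was at 1.61, 1.40, 1.39 and 1.53 CPM in control and at 1.08, 0.678, 0.357 and 0.144 CPM on GlcNAc. Its difference of −1.75 (95% interval −3.02 to −0.49) was the largest of any member that missed the threshold (limma adjusted p = 0.0666), and without GlcNAc replicate 1 it passed (0.0306), as it did with voom (0.0356) and with a pseudocount of 2 CPM (0.0383). CR44779, a lncRNA of the X chromosome, was at 1.59 ± 0.333 and 0.854 ± 0.181 CPM, a difference of −0.89 (limma adjusted p = 0.0715), and it passed with quantile normalization (0.0376) and without the trend (0.0208). Next in size among the members that missed the threshold were CR12460, at −1.26 (limma adjusted p = 0.439), and CR44114, at 1.11 (0.160). The pseudogene CR12460 had no read in GlcNAc replicate 1, and its other 7 libraries lay between 0.781 and 1.84 CPM. CR44114, an antisense RNA that had entered through GlcNAc only, was at 0.885, 0.503, 0.279 and 0.688 CPM in control and at 1.70, 1.51, 1.17 and 0.622 CPM on GlcNAc.

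Antisense and other opposite-strand members were compared with the genes they cross. In all, 58 members overlapped 65 genes of the table on the opposite strand, in 66 pairs. The partner had the higher level per kilobase in 56 of the 66 pairs, with a median ratio of 9.20. Of the 65 partners 17 had changed (26.2%), beside 15.3% of all genes and 18.6% of protein-coding genes with a mean of at least 10 CPM. Partners were not matched by level. A member that had changed was present in 8 of the pairs. Both genes had changed in a single pair, CR14033 with tkv. The signs of the log2 fold changes were the same in 38 pairs and opposite in 28, and across the 66 pairs Pearson's r was 0.11 and Spearman's rho 0.16, given as a description of genes measured in the same libraries.

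The pair that moved together was the pseudogene CR14033 and tkv, the type I receptor for the growth factor Dpp, whose exons it overlaps on the opposite strand by 158 bases. tkv was at 262.9, 280.1, 234.9 and 213.9 CPM in control and at 181.7, 200.6, 173.2 and 192.6 CPM on GlcNAc. It was lower in every GlcNAc library, and the change was −0.40 (SE 0.09, limma adjusted p = 0.0124), beside −0.59 for CR14033. CR45010 lies wholly within the exons of FucTC, a fucosyltransferase gene, on the opposite strand. FucTC was at 9.20 ± 1.16 CPM in control and 9.99 ± 0.977 CPM on GlcNAc, a difference of 0.12 (limma adjusted p = 0.584), while CR45010 rose by 1.01. Spt-I, opposite CR45142, was at 171.5 ± 9.39 and 184.0 ± 6.24 CPM, a difference of 0.10 (limma adjusted p = 0.301), while CR45142 fell by 1.29. Sodh-2, a sorbitol dehydrogenase gene opposite CR45195, differed by 0.81 in the same direction as CR45195 and missed the threshold (limma adjusted p = 0.0518). Differences of −0.05 for l(1)G0196 opposite CR43493, 0.18 for Mapmodulin opposite CR44417, 0.19 for KCNQ opposite CR45133 and 0.15 for CG34112 opposite CR46139 did not pass the test. The converse was seen too. CR44192, antisense to the sterol-binding protein gene Npc2e, was at 2.30 ± 0.196 CPM in control and 1.80 ± 0.372 CPM on GlcNAc, a difference of −0.37 (limma adjusted p = 0.306), while Npc2e rose by 0.81 (limma adjusted p = 0.00501).

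Neighbours on the same strand were then compared with the members. The nearest gene without overlap on each side was taken whatever its strand, and kept here if it lay on the member's strand. A same-strand gene beyond a nearer gene of the other strand was thus not counted. The account of neighbours beside members that also overlap a gene, and the limit of 2 kb, were chosen with the values in view. Neighbours with CR names were left out. Of the 18 members that changed, 7 had such a nearest gene on their own strand, within 2 kb and in the table. Of these 7 neighbours 6 had changed (85.7%, beside 15.3% of all genes), 5 in the direction of the CR gene. Among the members that had not changed there were 41 such pairs, in which 5 neighbours had changed (12.2%). Changed and unchanged members were not matched by level, and under 2 CPM only 1 of 50 members had changed. Where the neighbour lay upstream, so that the CR gene followed it, 4 of 5 neighbours of changed members had changed, all in the same direction. For members that had not changed, 2 of 18 upstream neighbours had changed (11.1%). The pairs of CR46269 and CR45195 are among the 5 and among the 4. These members had entered the table through control only and GlcNAc only, so their direction is not independent of the filter. For neighbours on the same strand at any distance the counts were 6 of 9 and 9 of 61. All these counts stand beside 15.3% of all genes, rest on few pairs and are descriptions, and no test was made of them.

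CR33013 starts 154 bases after the end of CG30043, on the same strand. CG30043 was at 206.7, 180.5, 234.6 and 169.6 CPM in control and at 55.7, 50.0, 46.8 and 52.3 CPM on GlcNAc. This fall of 1.94 on the log2 scale (SE 0.10, limma adjusted p = 4.9e-06) was larger than that of CR33013. Upstream of CR46269, at 975 bases, CG7881 was at 89.4, 143.2, 90.9 and 96.2 CPM in control and at 35.0, 31.7, 19.1 and 23.4 CPM on GlcNAc. It fell by 1.96 (SE 0.20, limma adjusted p = 0.000198), beside the fall of 3.34 in CR46269, and its groups did not overlap either. CR45142 ends 467 bases before GLaz, a lipocalin gene related to mammalian apolipoprotein D. GLaz was at 4.32, 6.543, 6.41 and 5.13 CPM in control and at 2.73, 3.60, 1.58 and 2.25 CPM on GlcNAc, a change of −1.18 (SE 0.26, limma adjusted p = 0.0116) next to −1.29 for CR45142. Per kilobase GLaz was below CR45142, at 0.516 of its level.

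On the rising side, CR42874 lies 509 bases downstream of Npc2a, which codes for a sterol-binding protein of the Niemann-Pick type C2 family. Npc2a was at 65.4, 59.8, 71.7 and 59.3 CPM in control and at 113.2, 79.6, 136.6 and 122.0 CPM on GlcNAc. It rose by 0.79 (SE 0.15, limma adjusted p = 0.00499), and among the GlcNAc libraries both genes were lowest in replicate 2 and highest in replicate 3. CR45195 lies 420 bases downstream of CG14695, which rose from 3.87 ± 1.43 to 10.7 ± 0.933 CPM, a change of 1.53 (SE 0.21, limma adjusted p = 0.00111) next to 1.58 for CR45195. CR44145 went the other way from its neighbour. Vha100-5, a gene for a subunit of the proton-pumping V-ATPase that lies 1406 bases downstream, was at 1265, 1407, 1285 and 1269 CPM in control and at 1054, 990.1, 1001 and 975.9 CPM on GlcNAc, a change of −0.38 (SE 0.07, limma adjusted p = 0.00463). The neighbour of CR46139, CG14646, differed by 0.24 and did not pass the test (limma adjusted p = 0.285).

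**Figure D4:**
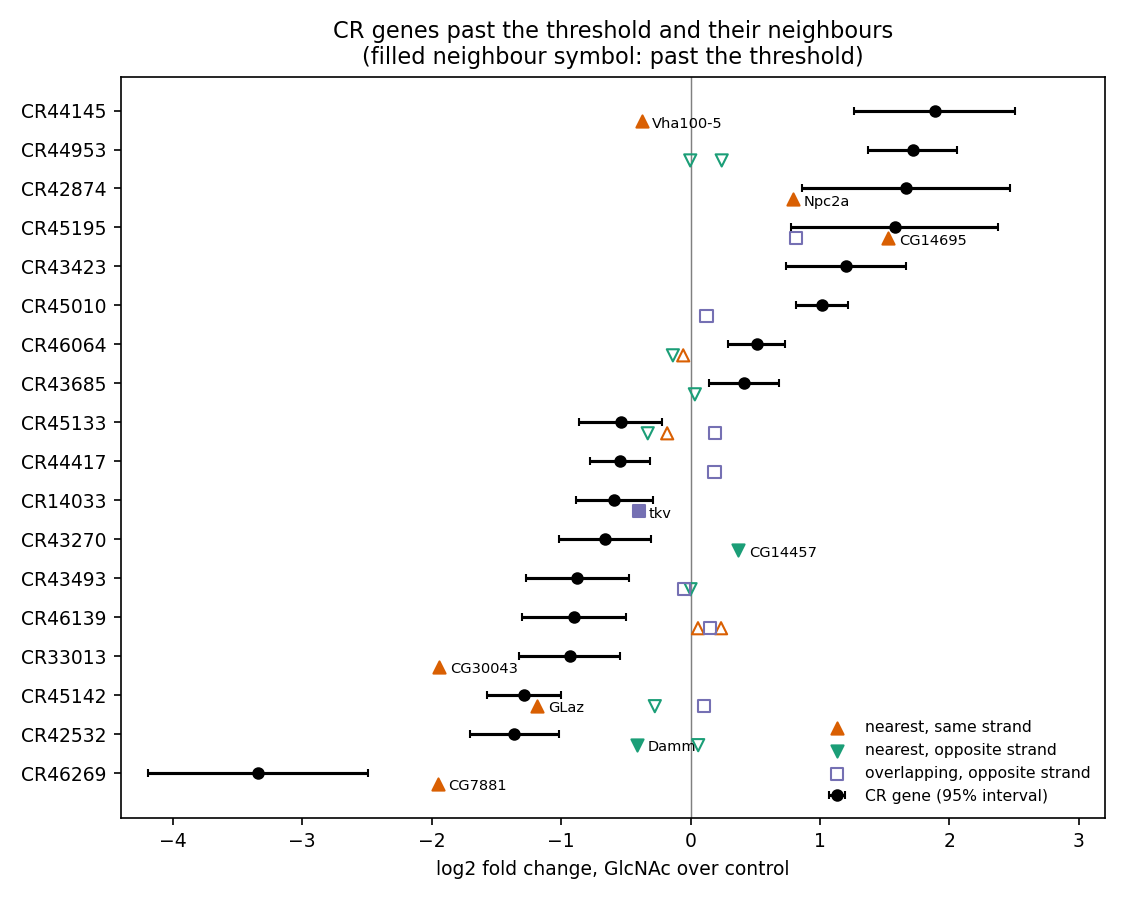
Log2 fold change of GlcNAc over control (horizontal axis) for each of the 18 changed CR genes, 1 gene a line, as black points with 95% intervals, and just below each point the overlapping or nearest genes in the table, filled where they passed the threshold. Among the nearest genes that share the strand of their CR gene, CG7881, CG30043, GLaz, CG14695 and Npc2a lie on its side and Vha100-5 on the other. Most overlapping partners, such as the open squares for Spt-I (0.10) and FucTC (0.12), lie near 0.

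A changed neighbour on the same strand did not always come with a changed CR gene. Npc2d, 1057 bases upstream of CR44192, fell by 2.35 (limma adjusted p = 2.8e-05), while CR44192 differed by −0.37 and did not pass. Cyp4d14, a cytochrome P450 gene 501 bases downstream of CR44690, fell by 0.93 (limma adjusted p = 0.000378) beside −0.29 for CR44690. BI-1, the Bax inhibitor gene 409 bases downstream of CR45409, rose by 0.88 (limma adjusted p = 0.00144), while CR45409 differed by −0.61 without passing. Nearest genes that lay on the opposite strand were also mixed. Damm, a caspase gene 559 bases from CR42532, fell by 0.41 (SE 0.10, limma adjusted p = 0.0206), as CR42532 did, whereas CG14457, 427 bases from CR43270 and related to juvenile hormone binding proteins, rose by 0.37 (SE 0.08, limma adjusted p = 0.00835) while CR43270 fell. Near CR44953 neither yata (0.00) nor kay (0.24), the Fos subunit of the transcription factor AP-1, passed the test.

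Of 22 other genes without a protein product but with another kind of name, 1 passed the threshold (4.55%, beside 15.3% of all genes). Values of the 22 rested on a median of 35 reads, against 254 for all genes. The gene that passed was the pseudogene LysC of the lysozyme family. LysC was at 24.3 ± 5.01 CPM in control and 13.5 ± 3.96 CPM on GlcNAc, a change of −0.89 (SE 0.23, limma adjusted p = 0.0282). The Uhg genes, which host small nucleolar RNAs, did not pass, the closest being Uhg5 at −0.52 (limma adjusted p = 0.0675). Control replicate 2 was the lowest control library in 48 of the 129 members and GlcNAc replicate 4 the lowest GlcNAc library in 46, the highest such counts of the 8 libraries.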

How the data were processed

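The authors trimmed single-end, strand-specific reads of poly-A selected RNA with Trimmomatic, mapped them with TopHat 2.1.0 to the FlyBase release 6 genome and counted exonic reads with HTSeq, without the poorly aligned ones. The authors deposited log2 CPM for 8 libraries and 7671 genes, those above 1 CPM in 3 or more of the 4 libraries of a condition. These values were scaled between libraries and carry an offset of 0.5 read, and all 61368 values gave whole reads to within 0.05. The authors' own fold changes, statistics, p-values and means in the same table were not used. Strand-specific counting keeps a gene apart from its antisense partner only as far as the library kept strand.

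The log2 CPM values were fitted with limma 3.58.1 (R 4.3.3; lmFit, eBayes with trend) with condition as the term, over all genes. CPM means and SDs were taken after the log2 values had been turned back to the linear scale, and intervals of read ratios are exact conditional binomial ones and cover counting error only. Single genes were also compared by exact permutation tests over 70 assignments. In simulated data for this comparison (10 sets of 7671 genes, 200 changed), 83.3% of 2-fold and 94.9% of 4-fold changes were recovered and 5.15% of calls were false. The changed genes were drawn from all genes, with a median of 254 reads per value, against 23 for the CR genes. Recovery was not computed for the CR genes alone, so these shares do not describe them. p-values measure the spread between the 4 samples of a condition, which the protocol calls independent.

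Genes named are the CR genes past the threshold with the genes that overlap them or, failing that, lie nearest, the 5 with the highest level, the 3 nearest to the threshold outside it, the 3 largest changes not past it, and the 3 lowest and 3 highest spreads. Other genes were named after their values were seen. The members and lists were chosen with earlier results of these data known. Alternatives covered scaling, pseudocount, level filter, voom on recovered reads, threshold, replicate block and left-out libraries. Positions come from the Ensembl annotation of BDGP6, the assembly the authors mapped to.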

Additional observations from a re-analysis of the deposited data

Results flagged for a closer look

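Among the named genes, a library far from the other 3 of its condition by Dixon's criterion was found in 2 of 56 groups (3.57%), and over all members in 13 of 258 (5.04%), where chance gives about 1 in 20. CR12460 stood at 0.0514 CPM in GlcNAc replicate 1, the value of 0 reads with the offset, and the other GlcNAc libraries were at 0.866 to 1.304 CPM. CR43051, the protein-coding CG43051, stood at 61.0 CPM in GlcNAc replicate 1 and at 69.6 to 71.5 CPM in the others.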

How the results depend on the processing

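Against 8 higher and 10 lower CR genes, a replicate block gave 7 and 13, voom on recovered reads 7 and 11, library totals 8 and 10, median centring 7 and 11, quantile normalization 7 and 12, pseudocounts of 0.1 and 2 CPM 8 and 10 or 12, and no trend 8 and 12. Over all genes, 671 were higher and 506 lower, and 866 and 408 with library totals, which moved the median log2 fold change to 0.07. Leaving out single libraries gave 7 to 8 higher and 8 to 12 lower. A mean of at least 10 CPM, met by only 16 CR genes, left 3 higher and 4 lower, an adjusted p under 0.01 left 5 and 7, and a 1.5-fold limit 6 and 8. Same-numbered libraries deviated together with r of 0.211, 0.397, 0.151 and −0.059, and unlike-numbered ones with r of −0.289 to 0.177. Control replicates 1 and 2 correlated best with their own number, control replicate 3 with GlcNAc replicate 4 (0.177) and control replicate 4 with GlcNAc replicate 2 (0.163). The numbers were therefore not taken as pairs, though this does not exclude a pairing. Over all genes the block gave 746 higher and 578 lower. Under it 17 of the 18 calls were kept and CR43685 was lost. No call reversed, though among named genes that did not pass, CR18854, CR45604 and CR44029, with changes near 0, took the other sign in some fits (CR44029 at −0.42 without control replicate 2). Of the 18 calls, 10 held under every alternative that could be run on them, and 15 held under every left-out library. Apart from CR43685, CR45133 and CR43270, no called gene lost its call under a left-out library. CR45133 was at adjusted p of 0.0558 to 0.0839 without control replicate 2 or 4 or GlcNAc replicate 1, 3 or 4, and at 0.0593 without the trend. CR44690 passed under the block (0.0336) and without GlcNAc replicate 2 (0.0346). With a median of 23 reads per value, 27 of the 111 members that did not pass had intervals that reach a 2-fold change.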
